A study of Cricetulus griseus with 4 samples.

Results

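The vitamin D receptor gene Vdr, the genes of its dimer partners Rxra, Rxrb and Rxrg, and Cyp24a1 were followed across 4 libraries of CHO-K1 cells. CHO-K1 is an established line from Chinese hamster ovary. The 5 genes were taken by name from a table of 20754 genes, and all 5 were found, 4 of them with counts. Cyp24a1 stands there as LOC100751280 (gene identifier 100751280), identified by its description. The others are Vdr (100767048), Rxra (100768377), Rxrb (100759059) and Rxrg (100759819).

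One culture was given DMSO, the solvent control, and another 25-hydroxyvitamin D3. The third received a selective inhibitor of SREBP, the factor that drives sterol synthesis genes, and the last a selective activator of VDR. After 24 hr on the plate, every culture, the control included, spent a further 24 hr in medium with 50 µM mevalonate, 5% serum depleted of lipids and compactin at 50 µM. Compactin is a statin, and cells held this way are starved of sterol. The labels name neither the selective compounds nor any dose, and they name no added RXR ligand.

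VDR is a nuclear receptor that binds the hormonal form of vitamin D. It pairs with a retinoid X receptor (RXR), and the dimer sits on DNA elements near target genes and recruits coactivators. Cyp24a1 encodes the mitochondrial hydroxylase that breaks down vitamin D metabolites, and it is known as the most responsive target of the receptor in kidney and many other cells. RXR proteins also partner with retinoic acid, thyroid hormone, LXR and PPAR receptors, so several pathways draw on the same RXR pool.

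Each treatment had 1 library, so no test across treatments was possible and no p-value is given. The libraries held 21335614 to 23653262 counts, and 11426 to 11918 genes had at least 10 counts. Levels are counts per 1000000 (CPM) of the effective library size, in which 1 CPM corresponds to between 20.4 and 24.4 counts. Intervals are 95% and exact, and they cover counting error only. Mitochondrial-encoded messages made up 0.753% of counts with 25-hydroxyvitamin D3 and 5.25 to 6.81% in the other libraries, and their part in the results below was not tested. Of 8 mesenchymal markers, 7 reached 1 CPM, with a summed level of 1902 to 3795 CPM that was lowest with 25-hydroxyvitamin D3 and highest in DMSO, and its part in the results was not tested either. The 6 epithelial markers summed to 0.818 to 1.77 CPM, with Krt18, Krt19 and Cldn4 at 0 in every library. The 4 leukocyte markers summed to at most 0.0818 CPM, with Ptprc and Cd3e at 0. The 6 kidney and intestine markers summed to 0.900 to 2.63 CPM, with Slc34a1, Umod and Aqp2 at 0.

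Cyp24a1 was low in the control and high in the libraries of 25-hydroxyvitamin D3 and the VDR activator. Its level was 3.27 CPM in DMSO (2.55 to 4.13), from 71 counts. With the SREBP inhibitor it was 5.99 CPM (5.03 to 7.07), from 139 counts. It reached 185 CPM in the 25-hydroxyvitamin D3 library (179 to 191), from 3768 counts, and 258 CPM with the VDR activator (252 to 265), from 6313 counts. The 4 intervals did not overlap. In bulk RNA, fewer expressing cells and less RNA per cell cannot be told apart.

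**Figure D1:**
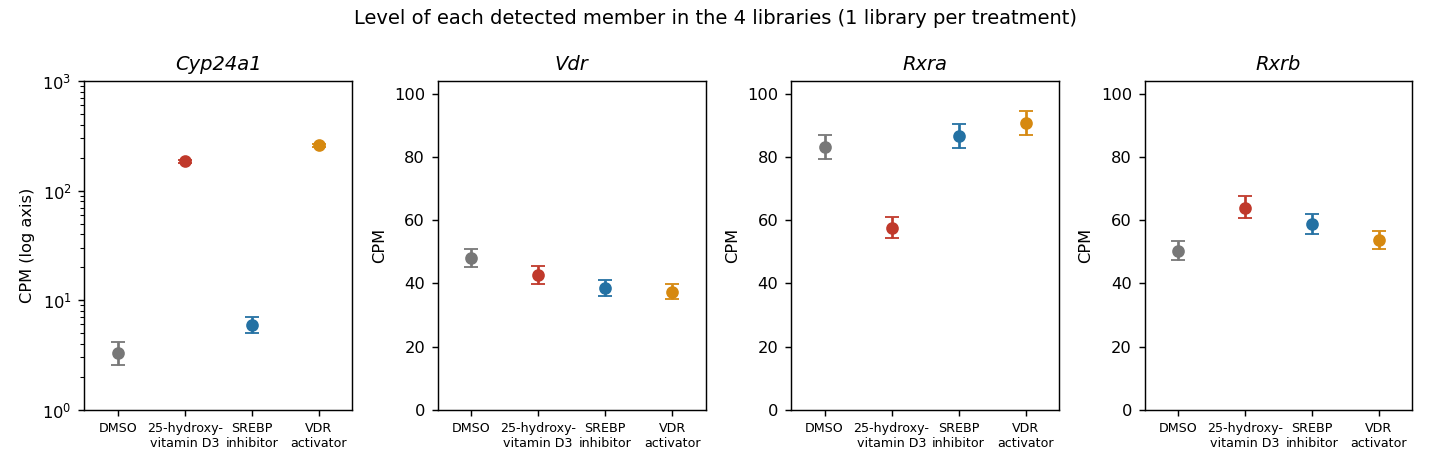
Level of the 4 detected genes in each library, in CPM, with Cyp24a1 on a log axis and the others on linear axes from 0. Points are single libraries and bars are 95% Poisson intervals of the count. Cyp24a1 lies at 3.27 and 5.99 CPM in DMSO and the SREBP inhibitor, and at 185 and 258 CPM in the other libraries, while Rxra is lowest with 25-hydroxyvitamin D3.

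A gene counted as measured when either library of a pair held 10 counts and 1 CPM of it or more, and as called when log2(CPM + 1) then differed by 1 or more (2-fold). Of the 4 members measured, Cyp24a1 alone was called against DMSO with the VDR activator, where 0.507% of 11431 measured genes were called, 0.184% as higher and 0.324% as lower. Its difference of 5.92 log2 was the highest of all measured genes in that comparison, and the ratio of CPM was 79.0 (62.5 to 101). Cyp24a1 was also the only member called with 25-hydroxyvitamin D3, where 23.8% of 11482 genes were called, 11.6% as higher and 12.2% as lower. There its difference was 5.44 log2, with a ratio of 56.5 (44.7 to 72.5), and 2 genes, itself included, lay that high. No member was called with the SREBP inhibitor, where 3.35% of 11449 genes were called, 1.95% as higher and 1.40% as lower.

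The small excess of Cyp24a1 with the SREBP inhibitor lay outside counting error but inside the 2-fold limit. The ratio to DMSO was 1.83 (1.37 to 2.47), a difference of 0.71 log2. In that comparison 5.05% of measured genes lay at least as high.

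Between the treated libraries, Cyp24a1 was 30.9-fold higher in the 25-hydroxyvitamin D3 library than in that of the SREBP inhibitor (26.1 to 36.8), in a comparison where 9.20% of genes were called. It was 43.1-fold lower with the SREBP inhibitor than with the VDR activator (36.5 to 51.4), and no other measured gene differed as far in that direction, in a comparison where 1.71% were called. With 25-hydroxyvitamin D3 it was 1.40-fold below the VDR activator (1.34 to 1.46). That comparison called 18.4% of genes but none of the members, and 25.0% of genes lay at least as low as Cyp24a1. The doses behind these levels are not given, so the last ratio sets libraries side by side and does not rank the ligands.

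Per length, Cyp24a1 was a rare message in DMSO and stood in the upper part of the table in both libraries where it was high. Its FPKM, the authors' value scaled by gene length and library size, was 0.847 in DMSO and 1.58 with the SREBP inhibitor. The value was 68.7 with the VDR activator and 45.2 with 25-hydroxyvitamin D3. By FPKM it ranked 10886th of 13865 detected genes in DMSO and 10330th of 13677 with the SREBP inhibitor, against 2241st of 13295 with 25-hydroxyvitamin D3 and 1249th of 13877 with the VDR activator. Set against its own receptor, Cyp24a1 was at 0.0771 times the FPKM of Vdr in DMSO and 0.176 times with the SREBP inhibitor. It was at 4.91 times the FPKM of Vdr with 25-hydroxyvitamin D3 and at 7.83 times with the VDR activator, so the target message exceeded the receptor message in those libraries only.

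**Figure D2:**
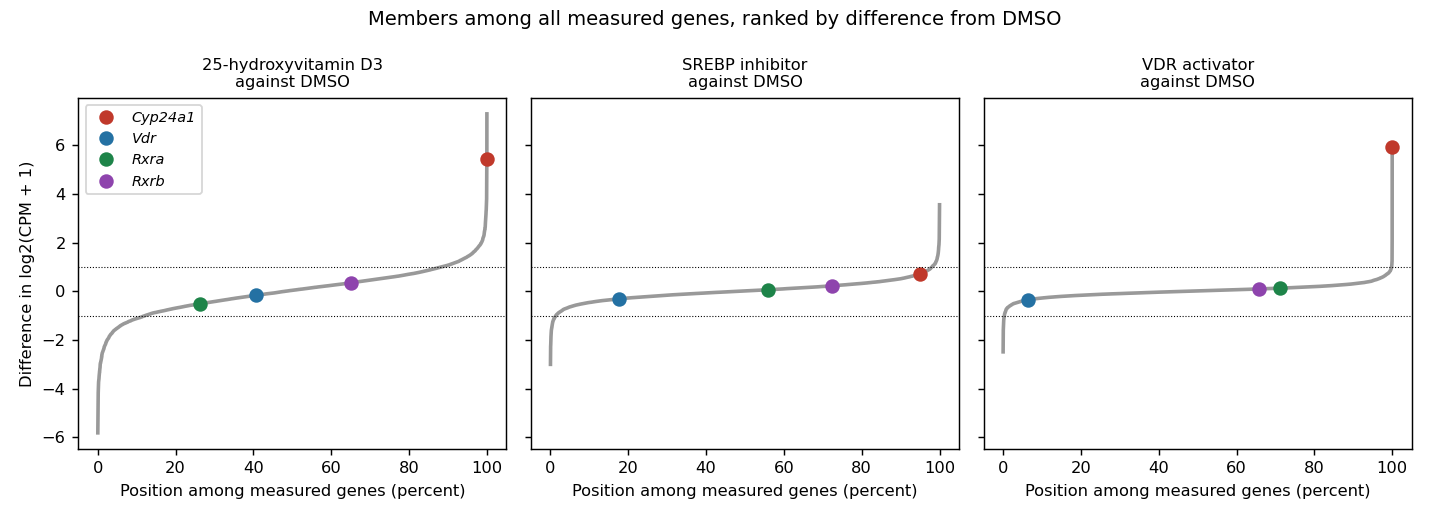
All measured genes ranked by their difference from DMSO in log2(CPM + 1), with rank as a percent on the horizontal axis, for the 3 treated libraries. Coloured points are the 4 measured members and dotted lines mark 2-fold. Cyp24a1 stands at 5.44 and 5.92 log2 with 25-hydroxyvitamin D3 and the VDR activator, and Vdr, Rxra and Rxrb stay inside the dotted lines in every panel.

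Vdr, the receptor gene, was present in every library and somewhat lower in each treated culture than in DMSO. Its level was 48.0 CPM in DMSO (45.1 to 51.0) and 42.6 CPM with 25-hydroxyvitamin D3 (39.8 to 45.6). It was 38.5 CPM with the SREBP inhibitor (36.0 to 41.1) and lowest, 37.4 CPM, under the VDR activator (35.0 to 39.9). DMSO was the highest library. The lowest pair did not differ beyond counting error, with a ratio of 1.03 (0.938 to 1.13) whose direction changed with the scaling. With the scaling used here, the 25-hydroxyvitamin D3 library lay above both. It was at 1.11 times the SREBP inhibitor (1.01 to 1.22) and 1.14 times the VDR activator (1.04 to 1.25). Over all the scalings compared, these differences ran from 0.035 to 0.17 log2 and from 0.069 to 0.19 log2. A change of scaling moves the interval with the ratio, so at the lowest of these values neither difference lies beyond counting error.

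Against DMSO, Vdr was 1.28-fold lower with the VDR activator (1.17 to 1.41), 1.25-fold lower with the SREBP inhibitor (1.14 to 1.37) and 1.13-fold lower with 25-hydroxyvitamin D3 (1.03 to 1.23). As differences these were -0.35, -0.31 and -0.17 log2. With the VDR activator 6.50% of measured genes lay at least as low, against 17.7% with the SREBP inhibitor and 40.6% under 25-hydroxyvitamin D3. Vdr thus stood farthest toward the lower end in the library where the fewest genes were called. The 3 comparisons share the DMSO library and are not independent.

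Rxra, the RXR alpha gene, stood out for the 25-hydroxyvitamin D3 library. It was at 83.1 CPM in DMSO (79.4 to 87.1) and 86.6 CPM with the SREBP inhibitor (82.9 to 90.5). The VDR activator library had 90.6 CPM (86.9 to 94.5). With 25-hydroxyvitamin D3 it was at 57.7 CPM (54.4 to 61.0). That library alone lay apart, below all 3 of the others.

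The ratio to DMSO made Rxra 1.44-fold lower with 25-hydroxyvitamin D3 (1.34 to 1.55), a difference of -0.52 log2, which is under the 2-fold limit. In that library 26.2% of measured genes lay at least as low, so the difference was not unusual for it. Rxra there was also 1.57-fold below the VDR activator (1.46 to 1.69), and it was at 0.665 times the level with the SREBP inhibitor (0.619 to 0.715). The ratio to DMSO was 1.09 with the VDR activator (1.02 to 1.16) and 1.04 with the SREBP inhibitor (0.977 to 1.11), and these 2 treated libraries did not differ beyond counting error (0.956, 0.900 to 1.02).

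Rxrb, the RXR beta gene, ran the other way in the 25-hydroxyvitamin D3 library. From low to high, its level was 50.2 CPM in DMSO (47.3 to 53.3), 53.6 CPM with the VDR activator (50.7 to 56.6), 58.8 CPM with the SREBP inhibitor (55.7 to 62.0) and 63.9 CPM with 25-hydroxyvitamin D3 (60.5 to 67.5). Each interval overlapped the next in this order. Of the neighbours in it, DMSO and the VDR activator did not differ beyond counting error with the scaling used here. The SREBP inhibitor library was at 1.10 times the VDR activator (1.02 to 1.18). The 25-hydroxyvitamin D3 library was at 1.09 times the SREBP inhibitor (1.01 to 1.17). Over all the scalings compared, these differences ran from 0.079 to 0.13 log2 and from 0.0093 to 0.15 log2, so their size depended on the scaling. The interval moves with the ratio, so at the lowest of these values neither difference lies beyond counting error. The ratio to DMSO was 1.27 (1.17 to 1.38) for 25-hydroxyvitamin D3, 1.17 (1.08 to 1.27) for the SREBP inhibitor and 1.07 (0.984 to 1.16) for the VDR activator. With 25-hydroxyvitamin D3, 35.0% of measured genes lay at least as high.

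Rxrg, the RXR gamma gene, which is best known from muscle and brain, had 0 counts in all 4 libraries. As a one-sided limit, a count of 0 allows up to 3 counts, or 0.123 to 0.147 CPM depending on the library. No difference between treatments was detectable at this depth.

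The balance of the RXR messages therefore differed in the 25-hydroxyvitamin D3 library. Per length, Rxra made up 45.0% of the Rxra and Rxrb FPKM in DMSO (43.1 to 46.9), and close to that with the VDR activator (45.5%, 43.8 to 47.2) and the SREBP inhibitor (42.1%, 40.5 to 43.9). With 25-hydroxyvitamin D3 the share was 30.8% (29.2 to 32.5), apart from the other libraries. Against DMSO there, 26.2% of measured genes lay at least as low as Rxra and 35.0% at least as high as Rxrb. How often other pairs of genes shift as far was not tested. The summed FPKM of the 2 genes was 35.4 in DMSO and 33.8, 40.2 and 39.2 with 25-hydroxyvitamin D3, the SREBP inhibitor and the VDR activator.

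A ratio of 2 genes inside a library does not depend on how libraries are scaled. The Rxra to Rxrb count ratio with 25-hydroxyvitamin D3 was 0.545 times that in DMSO (exact conditional interval 0.488 to 0.608). For the SREBP inhibitor it was 0.890 times (0.803 to 0.987) and for the VDR activator 1.02 times (0.921 to 1.13). The Vdr to Rxrb ratio was below DMSO in each treated library, at 0.698 times (0.617 to 0.789), 0.685 times (0.606 to 0.773) and 0.729 times (0.646 to 0.823) for 25-hydroxyvitamin D3, the SREBP inhibitor and the VDR activator. The Vdr to Rxra ratio split the libraries, at 1.28 times DMSO with 25-hydroxyvitamin D3 (1.14 to 1.44) but 0.769 times (0.688 to 0.860) and 0.714 times (0.640 to 0.797) with the SREBP inhibitor and the VDR activator. RXR messages exceeded the receptor message throughout, with a summed Rxra and Rxrb FPKM of 3.22 times Vdr in DMSO, 3.67 times with 25-hydroxyvitamin D3, 4.48 times with the SREBP inhibitor and 4.47 times with the VDR activator.

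**Figure D3:**
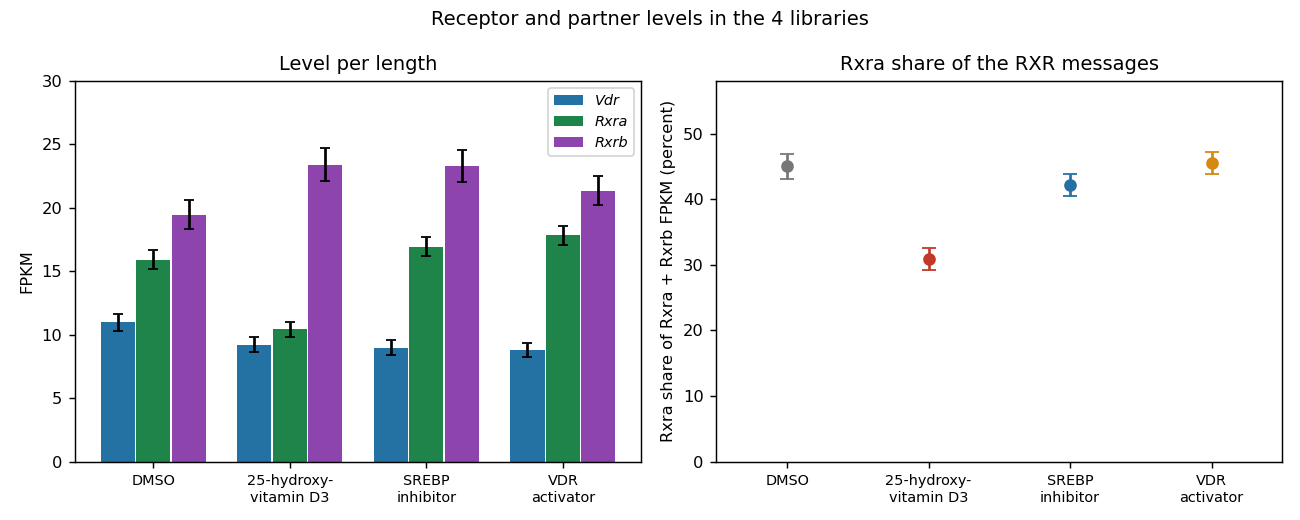
Left, FPKM of Vdr, Rxra and Rxrb in each library, with bars from 0 and 95% Poisson intervals of the count. Right, the share of Rxra in the Rxra and Rxrb FPKM, in percent with 95% Clopper-Pearson intervals of the counts. The share is 30.8% with 25-hydroxyvitamin D3 and 42.1 to 45.5% in the other libraries.

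Mitochondrial cytochrome P450 enzymes, CYP24A1 among them, take electrons from ferredoxin reductase through the ferredoxin FDX1, and neither gene was called in any library. Fdxr, the reductase gene, was at 37.1 CPM in DMSO, 67.5 with 25-hydroxyvitamin D3, 52.0 with the SREBP inhibitor and 53.7 with the VDR activator. Its ratio to DMSO was 1.82 (1.67 to 1.99), 1.40 (1.28 to 1.54) and 1.45 (1.33 to 1.58) in the same order. Fdx1, the ferredoxin that serves these enzymes, was at 32.0, 53.3, 40.7 and 34.7 CPM in DMSO, 25-hydroxyvitamin D3, SREBP inhibitor and VDR activator. Fdx2, a ferredoxin of iron-sulfur cluster assembly, was at 21.5, 49.8, 38.1 and 28.9 CPM, and was called, 2.32-fold higher with 25-hydroxyvitamin D3 (2.07 to 2.59). That made 1 of the 4 listed genes, or 25.0%, near the 23.8% of all genes called there. Por, the reductase for microsomal P450 enzymes, was at 8.71, 7.70, 5.95 and 8.72 CPM. Per length it was not the lowest. Its FPKM in DMSO was 22.6, beside 18.4 for Fdxr, 33.7 for Fdx1 and 18.1 for Fdx2. The median difference of the 4 genes was 0.78 log2 with 25-hydroxyvitamin D3, 0.41 with the SREBP inhibitor and 0.26 with the VDR activator, beside medians over all measured genes of 0.04, 0.01 and 0.01.

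Vitamin D activation and transport genes were near or at 0. Cyp27b1, the 1-alpha-hydroxylase that makes the hormonal form, had 19 counts in DMSO, 12 with 25-hydroxyvitamin D3, 16 with the SREBP inhibitor and 36 with the VDR activator. The last, at 1.47 CPM against 0.875 in DMSO, gave a ratio of 1.68 whose interval included 1 (0.940 to 3.11). Cyp2r1 and Cyp27a1, which encode 25-hydroxylases, and Gc, the plasma carrier of vitamin D, had 0 counts in every library. Lrp2, which takes up the carrier complex in kidney, stayed at or below 0.172 CPM. Cubn, its partner in uptake, was at 1.38 CPM in DMSO and at 0.834, 2.28 and 0.532 CPM with 25-hydroxyvitamin D3, the SREBP inhibitor and the VDR activator, and another row described as cubilin makes its value uncertain.

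Genes at the sterol end of the list were high, and 2 of them were lower with 25-hydroxyvitamin D3 and with the SREBP inhibitor. Dhcr7, which consumes the vitamin D precursor 7-dehydrocholesterol, was at 347 CPM in DMSO, 72.3 with 25-hydroxyvitamin D3, 119 with the SREBP inhibitor and 333 with the VDR activator. Sc5d, which makes that precursor, was at 809, 115, 215 and 702 CPM in the same order. In the 25-hydroxyvitamin D3 library they were 4.79-fold (4.53 to 5.07) and 7.03-fold lower (6.73 to 7.34), and in the SREBP inhibitor library 2.90-fold (2.78 to 3.03) and 3.76-fold lower (3.65 to 3.88). Pdia3, a protein disulfide isomerase also described as a membrane binder of vitamin D, was at 1194, 719, 1034 and 1023 CPM. Of the list, 5 genes were measured against DMSO in each of these libraries. Dhcr7 and Sc5d were the 2 called lower in each. Of all genes, 12.2% were called lower with 25-hydroxyvitamin D3 and 1.40% with the SREBP inhibitor. Cyp24a1 was the only one called higher with 25-hydroxyvitamin D3, beside 11.6% of all genes, and the median was -0.73 log2. With the SREBP inhibitor 0 were called higher, beside 1.95% of all genes, and the median was -0.21. Of 6 measured with the VDR activator, Cyp24a1 was the only one called, beside 0.507% of all genes. The median there was -0.13.

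Coregulators of the VDR and RXR dimer were all expressed, with all 26 listed genes measured. With 25-hydroxyvitamin D3, 4 were higher and 1 lower, or 19.2% beside the 23.8% of all genes, with a median of 0.31 log2. The higher ones were the arginine methyltransferase genes Prmt1, at 2.86-fold (2.72 to 3.00; 102 against 290 CPM), and Carm1, at 2.43-fold (2.33 to 2.54), the bromodomain gene Brd7 at 2.31-fold (2.19 to 2.43), and the histone demethylase gene Kdm6b at 2.11-fold, whose difference of 1.01 log2 was just past the limit. Brd9 was 2.70-fold lower (2.35 to 3.10), at 37.3 CPM in DMSO and 13.8. BRD7 and BRD9 belong to different forms of the SWI/SNF remodelling complex, and both have been described as VDR cofactors, in beta cells, whose balance shifts with ligand.

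With the VDR activator, Brd7 was at 116 CPM against 99.0 in DMSO and Brd9 at 37.5 against 37.3. None of the 26 coregulators was called with the VDR activator or with the SREBP inhibitor, beside 0.507% and 3.35% of all genes. At those shares few or no calls would be due among 26 genes. The medians were 0.07 and 0.09 log2. Snw1, also known as SKIP, a coactivator of VDR and a splicing factor, was among the 3 highest per length in DMSO with Prmt1 and Brd7, and was at 105 CPM in DMSO and 193, 132 and 112 CPM with 25-hydroxyvitamin D3, the SREBP inhibitor and the VDR activator.

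The other receptors that share RXR stood below DMSO with 25-hydroxyvitamin D3 where they were measured. Of 15 listed, 12 were measured, and 0 of these were called higher and 4 lower, or 33.3% beside the 12.2% of all genes called lower. All 12 had a difference below 0, where 48.3% of all measured genes had one. Of the 3 not measured, Rarb (2 counts in DMSO, 5 with 25-hydroxyvitamin D3) and Nr1i2 (2 and 4 counts) lay above DMSO, and Nr1h4 had 0 counts. Their median was -0.60 log2. The called ones were Nr4a1 (17.0 against 3.97 CPM), an orphan receptor of the early response, the thyroid hormone receptor genes Thra (261 against 93.8 CPM) and Thrb (1.57 against 0.0981 CPM), and Nr1h3, which encodes LXR alpha (51.2 against 18.0 CPM). Thra was 2.78-fold lower (2.64 to 2.93), but a second row with the same description shares reads with it, so its value is uncertain. Thrb rested on 34 against 2 counts, a ratio of 16.0 (4.09 to 137), and counted as measured only through its DMSO level. With a minimum of 5 CPM, 3 were called lower.

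The remaining partners ranged from little different to nearly 2-fold lower with 25-hydroxyvitamin D3. Nr1h2, which encodes LXR beta, was 1.97-fold lower (1.83 to 2.13; 99.7 against 50.5 CPM). The retinoic acid receptor gene Rarg was at 53.2 against 34.2 CPM, Rara at 70.8 against 67.5, and Ppara, Ppard and Pparg at 37.1 against 24.7, 100.1 against 98.7 and 159 against 123 CPM. Nr1i3, which encodes CAR, was at 11.5 against 7.56 CPM and Nr4a2 at 23.8 against 20.4 CPM.

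With the selective compounds Nr4a1 was the only one of the 12 partners called. It was 2.89-fold lower with the SREBP inhibitor (2.37 to 3.54) and 2.65-fold lower with the VDR activator (2.20 to 3.22). That was 8.33% of the partners, beside 3.35% and 0.507% of all genes. Nr4a1 was thus called in all 3 comparisons, which share the DMSO library, but a pseudocount of 5 CPM ended the call with the VDR activator. A pseudocount of 0.1 CPM gave 2 partners lower with each compound. Thrb, at 15 and 14 counts against 34 in DMSO, was 2.42-fold (1.28 to 4.79) and 2.73-fold lower (1.43 to 5.51). At a pseudocount of 1 CPM it was not called. Pparg was at 199 CPM with the SREBP inhibitor and 103 CPM with the VDR activator, on either side of its 159 CPM in DMSO. The medians were -0.15 log2 with the SREBP inhibitor and -0.19 with the VDR activator. For comparison, Rxra differed from DMSO by -0.52 log2 with 25-hydroxyvitamin D3 and Rxrb by 0.34.

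Known targets of RXR paired with LXR, PPAR or retinoic acid receptors included 2 genes high with both 25-hydroxyvitamin D3 and the SREBP inhibitor. Of 8 measured with 25-hydroxyvitamin D3, 2 were higher and 1 lower, or 37.5% beside 23.8% of all genes (median -0.54 log2). Abca1, the cholesterol efflux pump and an LXR target, was at 61.4 CPM in DMSO, 644 with 25-hydroxyvitamin D3, 599.9 with the SREBP inhibitor and 46.7 with the VDR activator. Plin2, a lipid droplet coat gene and PPAR target, was at 265, 929, 638 and 336 CPM in the same order. Both were called in the first 2 treated libraries. Cpt1a, the gate of mitochondrial fatty acid oxidation, was 2.85-fold lower with 25-hydroxyvitamin D3 (2.63 to 3.08), and the transglutaminase gene Tgm2 was at 260 against 142 CPM. With the SREBP inhibitor 2 of 7 were higher and 0 lower, or 28.6% beside 3.35% of all genes (median -0.24). With the VDR activator 0 of 7 were called, beside 0.507% of all genes (median -0.31).

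Classical VDR targets other than Cyp24a1 all stayed inside the 2-fold limit with the VDR activator where they were measured. Of 45 listed, 42 were matched and 21 were measured. The calcium and phosphate handling targets Trpv5, Trpv6, S100g, Calb1, Slc34a1 and Slc34a3, the best known in gut and kidney, had 0 counts in every library. With the VDR activator Cyp24a1 was the only one of 21 called, or 4.76%, beside 0.507% of all genes. At that share few or no calls would be due among 21 genes. The median of the other measured targets was -0.11 log2. With the SREBP inhibitor 0 of 21 were called, beside 3.35% of all genes, and that median was -0.15.

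With 25-hydroxyvitamin D3, 3 of the 21 targets were higher and 3 lower, or 28.6%, near the 23.8% of all genes. Abcb1, the drug efflux pump gene, was at 71.5 CPM in DMSO and 335 with 25-hydroxyvitamin D3, but at 86.0 with the VDR activator. Its reads are split with the close copy Abcb1b, so its value is uncertain. Hbegf, a growth factor gene, was at 4.51 CPM in DMSO, 4.01 with the VDR activator and 11.7 under 25-hydroxyvitamin D3. The lower targets were the protease inhibitor gene Serpinb1 (87.6 against 11.7 CPM), Pdlim2, which encodes a cytoskeletal PDZ and LIM protein (24.9 against 6.48), and Spp1, the osteopontin gene (28 against 2 counts, a ratio of 13.1 with an interval of 3.31 to 114).

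The most abundant listed targets per length in DMSO were Cdkn1b, Thbd and Serpinb1. Cdkn1b, a cell cycle inhibitor gene, was at 85.9 CPM in DMSO, 70.9 with 25-hydroxyvitamin D3, 60.4 with the SREBP inhibitor and 88.1 with the VDR activator. Thbd, the thrombomodulin gene, was at 303, 169, 163 and 263 CPM in the same order. Neither was called in any library.

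**Figure D4:**
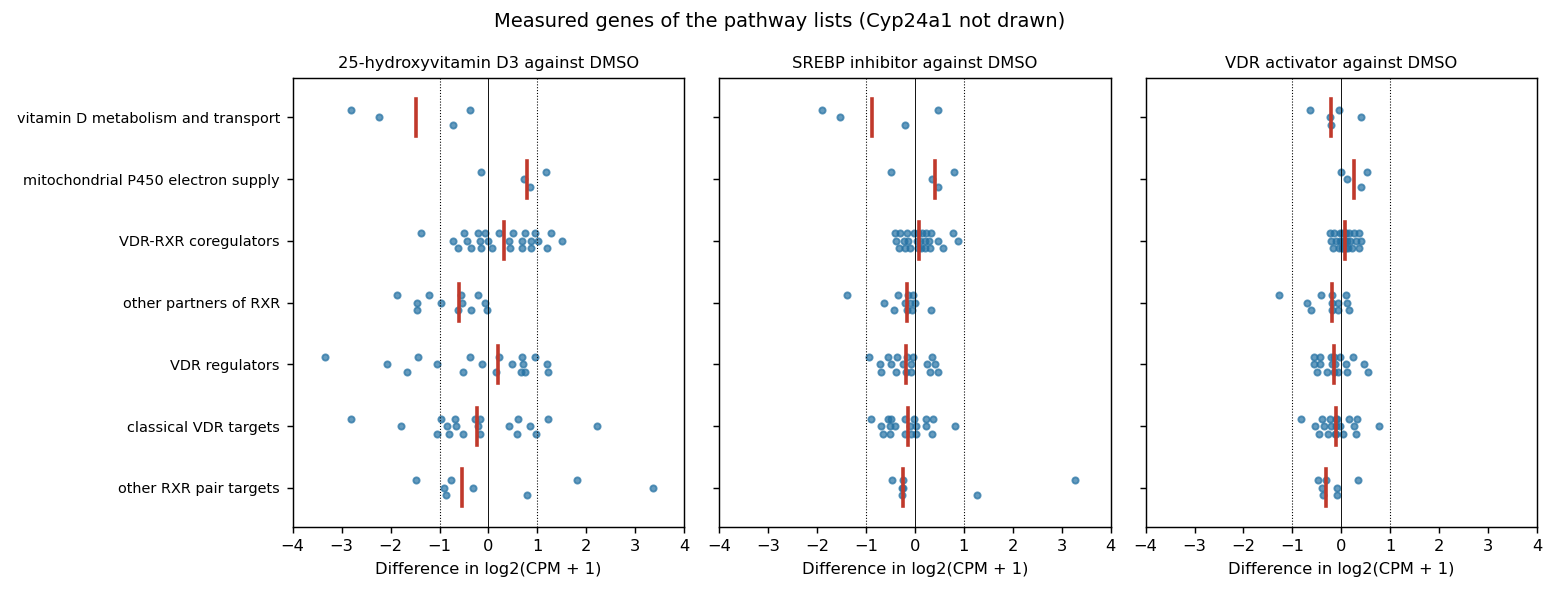
Difference from DMSO in log2(CPM + 1) of each measured gene of the 7 lists, in 3 panels for the treated libraries, with Cyp24a1 left out. Points are genes, red lines are list medians and dotted lines mark 2-fold. With 25-hydroxyvitamin D3 all 12 other partners of RXR lie below 0, and with the VDR activator Nr4a1 is the only point past a dotted line.

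Of 18 measured genes known to set the amount or activity of VDR, 2 were higher and 5 lower with 25-hydroxyvitamin D3, or 38.9% beside 23.8% of all genes (median 0.19 log2). With the SREBP inhibitor and the VDR activator 0 were called, beside 3.35% and 0.507% of all genes (medians -0.18 and -0.15). Sp1, a factor that binds the VDR promoter, was at 20.7 CPM in DMSO and 49.2 with 25-hydroxyvitamin D3, and Ezh2, a histone methyltransferase gene, at 23.6 and 55.2. The repressors Snai1 and Snai2, which are reported to silence VDR in human colon cancer, were lower, at 12.8 against 4.07 CPM and 57.1 against 12.9 CPM. Egr1 was 11.8-fold lower (9.72 to 14.5; 62.7 against 5.30 CPM) and Runx2 2.39-fold (1.81 to 3.17). Wt1, which encodes a zinc finger factor of the developing kidney, had 50 counts in DMSO and 1 with 25-hydroxyvitamin D3, a ratio of 46.9 with an interval of 8.05 to 1891.

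The most abundant of these genes per length differed less. Ywhaz, a 14-3-3 protein gene, was at 348 CPM in DMSO and 268, 292 and 314 CPM with 25-hydroxyvitamin D3, the SREBP inhibitor and the VDR activator. Ets1, a factor that binds beside VDR at the Cyp24a1 promoter in rat, was at 336, 306, 298 and 236 CPM, lowest with the VDR activator. Mdm2, a ubiquitin ligase gene, was at 170, 273, 209 and 180 CPM.

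The pattern of Cyp24a1 had no close match. Across its 3 differences from DMSO, the nearest of 10396 genes with at least 5 CPM in a library lay 5.32 log2 units away (Euclidean distance). That gene was Atf3, a stress-induced factor, at 1.29, 48.0, 8.92 and 3.27 CPM in DMSO, 25-hydroxyvitamin D3, SREBP inhibitor and VDR activator. The next were Junb, a subunit of AP-1, at 5.39, Fst, which encodes the activin inhibitor follistatin, at 5.46, Cdca7 at 5.53 and the septin gene Sept3 at 5.55. Each was higher with 25-hydroxyvitamin D3 by 2.93 to 4.42 log2 but by no more than 1.16 log2 with the VDR activator. Junb and Cdca7, at 1.16 and 1.09 log2, still passed the 2-fold limit there, where 0.184% of genes were called higher.

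Correlation over the 4 libraries, which ignores the size of the difference, picked other genes. Among 2673 genes with a range of 2-fold or more and at least 5 CPM in a library, the highest were Ankle1 (r = 0.985), Recql4 (0.978), Top2a (0.971), Cdca5 (0.968) and Fancd2 (0.960). They act in DNA replication, repair or chromosome segregation. Ankle1 was at 10.2, 20.1, 12.8 and 22.5 CPM and the helicase gene Recql4 at 10.3, 24.3, 14.3 and 25.6 CPM in DMSO, 25-hydroxyvitamin D3, SREBP inhibitor and VDR activator. With the VDR activator their differences of 1.07 and 1.23 log2 passed the 2-fold limit. A correlation over 4 points that share libraries and depth is a description only.

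**Figure D5:**
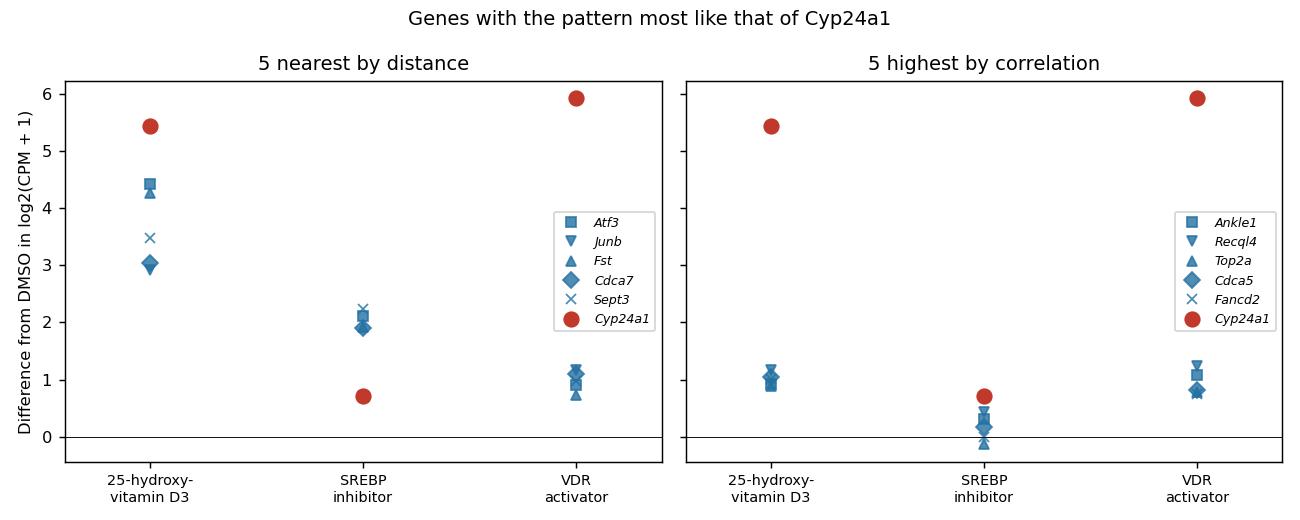
Difference from DMSO in log2(CPM + 1) in the 3 treated libraries for Cyp24a1 (red circles) and the 5 genes nearest by distance (left) or highest by correlation over the 4 libraries (right). Cyp24a1 is at 5.92 log2 with the VDR activator, where no gene of either set passes 1.23 log2.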

How the data were processed

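Total RNA of 4 CHO-K1 cultures went through a TruSeq mRNA library kit, per the labels' protocols, with 1 library per treatment. The authors deposited estimated counts per gene row and the authors' FPKM values, per the file headers. The submitters' processing notes list the tools bcl2fastq 1 and TopHat2 2 without saying what each did. No coordinates are reported, since neither the counting tool and strand setting nor the genome build is given in the sources used here. Reads from overlapping or antisense genes may be joined.

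The table's 21266 rows were summed to 20754 genes, since 479 genes stand on several loci, and counts were rounded, since 15.4 to 16.3% of genes per library were over 0.01 from a whole number. Identifiers of 19611 rows, the 5 members among them, were found in the RefSeq gene table of CriGri-PICRH-1.0. Only names and gene order were taken from that table. Levels are CPM of library sizes scaled by TMM (trimmed mean of M values; edgeR 4.0.16, R 4.3.3). A pseudocount of 1 CPM was added before taking log2, so differences of low genes are understated on that scale. Folds are ratios of CPM with Clopper-Pearson intervals of the 2 counts, from scipy 1.17.1. These intervals and the one-sided limit of 3 counts for a count of 0 cover counting error only. Reads without molecular identifiers need not be independent molecules. The calling rule was tested on simulated Poisson counts, which hold no variation between cultures, so that test does not cover such variation.

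The members, the 7 lists and the comparisons were chosen with earlier results of these data known. Named from the lists are all genes called against DMSO, the electron carriers, vitamin D metabolism genes and expressed RXR partners, and from the other lists the 3 highest per length in DMSO and the 3 with the largest difference. The 5 genes most like Cyp24a1 by each measure are named too. Listed genes left out because no row was matched to them were Cyp3a11, Ugt1a1, Sult2a1, Cebpa, Cebpb and Gadd45a. Alternatives were the scaling (total counts, DESeq2 1.42.0 size factors, FPKM totals, TMM without mitochondrial-encoded genes), the pseudocount, the minimum, the limit, unsummed rows and unrounded counts.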

Additional observations from a re-analysis of the deposited data

How the results depend on the processing

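Every value compares 2 libraries without replicates, so the variation between cultures is unknown and no library could be left out. No paired analysis was possible because each treatment has 1 library. Of 48 alternative values each for Cyp24a1, Vdr, Rxra and Rxrb over the 6 pairs of libraries, 42, 48, 45 and 47 stayed within the counting interval of the reported difference. None of the called Cyp24a1 differences changed sign. A pseudocount of 5 CPM, which weighs down the low DMSO count by construction, moved Cyp24a1 against DMSO from 5.44 to 4.52 log2 with 25-hydroxyvitamin D3 and from 5.92 to 4.99 with the VDR activator. Total counts moved Cyp24a1 with 25-hydroxyvitamin D3 against the VDR activator from -0.48 to -0.59 log2. Over the 5 scalings Rxra with 25-hydroxyvitamin D3 against DMSO stayed between -0.61 and -0.51 log2.

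Over the 94 listed genes measured in any comparison with DMSO, 12 genes were higher and 16 lower with 25-hydroxyvitamin D3, 2 and 3 with the SREBP inhibitor, and 1 and 1 with the VDR activator, beside 23.8%, 3.35% and 0.507% of all genes called. A limit of 1.5-fold gave 29 and 29, 7 and 10, and 2 and 5. A pseudocount of 0.1 CPM gave 7 lower with the SREBP inhibitor and 4 lower with the VDR activator, and one of 5 CPM gave 0 lower with the VDR activator. Leaving out the minimum could change no count, since a gene under 1 CPM in both libraries cannot differ by 1 log2 at this pseudocount. Of 210 counts for single lists under the other alternatives, 183 were within 1.5 times the reported count. Many of these were counts of 0 that stayed at 0, so the share says little about the counts above 0. Correlation shared 0 of its 5 genes most like Cyp24a1 with the 5 nearest by distance, and a minimum of 1 CPM kept all 5. At 71 counts, Cyp24a1 in DMSO sets the width of its intervals.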

Other observations

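Sterol hydroxylases related to Cyp24a1, listed after their values were seen, showed a different order across the libraries. Cyp7b1, identified by its description as the 25-hydroxycholesterol 7-alpha-hydroxylase, which inactivates hydroxysterols, was at 1.06 CPM in DMSO, 9.27 with 25-hydroxyvitamin D3, 3.83 with the SREBP inhibitor and 0.737 with the VDR activator. Its ratio to DMSO was 8.75 (5.66 to 14.1), 3.62 (2.27 to 6.00) and 0.695 (0.354 to 1.35) in the 3 treated libraries in that order. Cyp46a1, the cholesterol 24-hydroxylase, was at 2.03, 2.36, 1.21 and 3.72 CPM in the same order, highest with the VDR activator, from 44, 48, 28 and 91 counts. Cyp39a1, the 24-hydroxycholesterol 7-alpha-hydroxylase, stayed between 9.44 and 10.3 CPM. Cyp11a1, of cholesterol side-chain cleavage, had 0 counts in DMSO, 14 with 25-hydroxyvitamin D3, 2 with the SREBP inhibitor and 1 with the VDR activator.

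Genes beside Cyp24a1 in the RefSeq gene order stayed inside the 2-fold limit with the VDR activator. The direct neighbour Pfdn4 was higher there than in DMSO, and the direct neighbour on the other side had 0 counts. The 2 protein-coding genes on each side were taken. Pfdn4, a prefoldin subunit gene, was at 40.8 CPM in DMSO, 128 with 25-hydroxyvitamin D3, 58.4 with the SREBP inhibitor and 59.99 with the VDR activator. Its difference of 1.63 log2 with 25-hydroxyvitamin D3 passed the 2-fold limit, where 11.6% of genes were called higher. With the VDR activator it was 0.54 log2, above the 95th percentile of measured genes (0.43). A link to Cyp24a1 was not tested. Dok5, beyond Pfdn4, was at 25.9, 36.3, 30.2 and 23.8 CPM, and Znf217, on the other side, at 87.9, 91.8, 84.6 and 98.0 CPM. Between Cyp24a1 and Znf217 lay the direct neighbour of that side, a homolog of breast carcinoma-amplified sequence 1. It had 0 counts in every library.

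The transferrin receptor gene Tfrc was the classical target, after Cyp24a1, with the largest excess with the VDR activator, at 159 CPM beside 93.3 CPM in DMSO, a ratio of 1.70 (1.61 to 1.80). With 25-hydroxyvitamin D3 it was at 64.9 CPM, on the other side of DMSO. It was singled out after its values were seen.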
